A study of Mus musculus with 55 samples.

Results

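Among the CTCF peaks of mouse liver labelled Setd8-LKO, 3432 peaks lay where untreated wild type liver already had a peak of the cohesin subunit Smc3 but no CTCF peak. They were selected on measured peaks, as every peak of the CTCF list labelled Setd8-LKO that shared no base with a wild type (WT) CTCF peak and at least 1 base with a WT Smc3 peak. The LKO-labelled list held 20905 CTCF peaks, of which 17533 (83.9%) had no WT counterpart and were called gained, so these sites made up a minority of the gained peaks. The other gained peaks were 9912 with an Smc3 peak in the LKO-labelled list only and 4189 with no Smc3 peak in either list, and 3372 CTCF peaks were kept from the WT list. Because CTCF and WT Smc3 peaks chose the sites, their CTCF level and their WT Smc3 level are given only as a description.

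The livers came from male C57Bl6 mice 45 to 50 days old. WT mice were untreated according to the labels, whereas the methods name a corn oil vehicle. Setd8-LKO mice were homozygous for a Setd8 allele with loxP sites around exon 7 and carried Cre recombinase under the albumin promoter, which is active in hepatocytes and not in the other cells of the liver, and they received 3 mg/kg TCPOBOP 24 h before collection. TCPOBOP is an agonist of the nuclear receptor CAR that drives hepatocytes into division. No chromatin data of TCPOBOP-treated WT liver were analysed here, so genotype and treatment change together and cannot be told apart in any comparison of peaks. The 55 samples comprise WT and Setd8-LKO libraries of CTCF (4 WT, 2 Setd8-LKO), Smc3 (3 WT, 2 Setd8-LKO), H3K27ac (3 of each), ATAC-seq (3 WT, 5 Setd8-LKO), Lamin A/C (4 of each, where the 4 WT libraries carry only the animal numbers 1 and 2 and may come from 2 mice), H4K20me3 (2 of each) and input DNA (2 of each). RNA-seq covered 5 untreated WT, 5 TCPOBOP-treated WT and 4 TCPOBOP-treated Setd8-LKO livers.

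CTCF is a zinc finger protein that binds a long GC-rich motif. Cohesin is a ring of Smc1, Smc3, Rad21 and a Stag subunit that extrudes loops of chromatin and halts where CTCF is bound, so most cohesin peaks in a cell coincide with CTCF at loop anchors. Cohesin is also found without a detectable CTCF peak at active promoters and enhancers, and in liver many such sites carry tissue-specific transcription factors.

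Each assay had 1 list of peaks per condition, so no difference between lists has a replicate check. Shares carry exact 95% intervals by the Clopper-Pearson method, and these intervals measure counting error alone. The lists were unequal in size, with 5838 WT against 20905 LKO-labelled CTCF peaks and 13045 against 21615 Smc3 peaks, and close in size for H3K27ac (27983 and 27752) and ATAC-seq (27307 and 23386). The depth behind each peak is unknown, since the lists hold no read counts. Fold enrichment means the signal of a peak over its local background as computed by the peak caller.

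The sites differed in how closely their sequence matched the CTCF consensus. A match to the 12 bp core of the CTCF consensus with at most 1 mismatch stood within 100 bp of the summit in 34.9% of them (1198 of 3432, interval 33.3 to 36.5), against 21.6% of all CTCF peaks of the list and 2.77% of 93459 windows of the same length around annotated protein coding transcript starts. The following 4 sites have the full core without a mismatch and the highest CTCF fold enrichment among such sites, and show what a canonical site of this group looks like. Each is a stretch of the GRCm38 (mm10) genome centred on the core, with the core in capitals. In C1qbp the core lies on the minus strand and is seen as its reverse complement, and in the other 3 it lies on the plus strand.
C1qbp (chr11:70983043-70983143, plus strand): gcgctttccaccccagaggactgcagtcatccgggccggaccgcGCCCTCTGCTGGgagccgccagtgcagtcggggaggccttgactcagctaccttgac
4930479H17Rik (chr7:30347944-30348044, plus strand): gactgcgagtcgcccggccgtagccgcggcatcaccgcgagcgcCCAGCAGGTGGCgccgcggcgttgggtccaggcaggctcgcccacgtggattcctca
Tm6sf1 (chr7:81868229-81868329, plus strand): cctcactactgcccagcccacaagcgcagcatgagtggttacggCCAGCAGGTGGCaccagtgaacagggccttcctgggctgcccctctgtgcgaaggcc
Kcnk9 (chr15:72549527-72549627, plus strand): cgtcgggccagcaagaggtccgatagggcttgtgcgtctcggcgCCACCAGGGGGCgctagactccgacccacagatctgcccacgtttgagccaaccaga

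C1qbp encodes a mitochondrial matrix protein and had its CTCF summit at a start. This site had 94.6-fold CTCF enrichment, and its Smc3 fold enrichment was 26.96 in the WT list and 144 in the LKO-labelled list. The site between genes 5330 bp from the start of 4930479H17Rik had an Smc3 fold enrichment of 16.4 and 145. The site near Tm6sf1 lay 1440 bp from the nearest start and had 12.8 and 42.5, and that nearest to Kcnk9, which encodes a potassium channel, also lay away from starts and had 13.3 and 64.8. The C1qbp site overlapped H3K27ac peaks of both lists and the other 3 overlapped none.

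Under the same exclusions, which removed Prcp (100.4), the next 4 sites had the highest CTCF fold enrichment among those without the core. They are shown as examples of strong gained peaks without it. They run 50 bp to each side of the CTCF summit, and capitals mark the Sp1 box GGGCGG where it occurs.
Dagla (chr19:10305006-10305106, plus strand): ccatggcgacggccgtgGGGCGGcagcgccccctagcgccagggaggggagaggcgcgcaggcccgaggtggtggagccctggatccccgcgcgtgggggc
Slc6a4 (chr11:76997411-76997511, plus strand): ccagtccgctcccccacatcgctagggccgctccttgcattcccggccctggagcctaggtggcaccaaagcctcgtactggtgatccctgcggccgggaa
Rab10os (chr12:3235780-3235880, plus strand): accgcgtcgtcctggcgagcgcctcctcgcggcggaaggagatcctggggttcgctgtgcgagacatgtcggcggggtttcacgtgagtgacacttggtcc
Arid2 (chr15:96286777-96286877, plus strand): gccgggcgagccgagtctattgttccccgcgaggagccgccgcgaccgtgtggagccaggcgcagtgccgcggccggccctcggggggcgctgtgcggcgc

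The best match to the core within 100 bp of these summits had 2 mismatches at Dagla, Slc6a4 and Arid2 and 3 at Rab10os. Dagla, which encodes a lipase that makes an endocannabinoid, held the strongest site of all, with 117-fold CTCF enrichment and an Smc3 fold enrichment of 22.3 in the WT list and 162 in the LKO-labelled list. The site next to Slc6a4, the serotonin transporter gene, lay 1142 bp from its start and was the only one of these 4 with no H3K27ac peak in either list. Rab10os is an antisense transcript at the Rab10 promoter, and its site lay 2 bp from its start with 106-fold CTCF enrichment. Arid2, a subunit of the PBAF chromatin remodelling complex, had 99.1-fold CTCF enrichment and an Smc3 fold enrichment of 12.97 and 102.

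Over all 3432 sites the best match to the core had 0 mismatches in 12.6%, 1 in 22.3%, 2 in 31.8%, 3 in 30.01% and 4 in 3.26%. Kept CTCF peaks had 0 mismatches in 22.3% and 1 in 39.2%, and gained peaks with Smc3 in the LKO-labelled list only had 0.767% and 6.28%. With at most 1 mismatch the shares were 34.9% here, 61.5% (interval 59.9 to 63.2) at kept peaks, 7.04% (6.55 to 7.56) at gained peaks with new Smc3 and 13.1% (12.1 to 14.1) at gained peaks without Smc3. These intervals did not overlap, although no test over replicates was possible. The order depended on the length of the list. With the LKO-labelled list shortened to as many peaks as the WT list, the shares were 40.6% at the sites, 59.6% at kept peaks, 21.2% at gained peaks with new Smc3 and 52.02% at 248 gained peaks without Smc3, so that the last class then stood above the sites. Where the core was present it lay close to the summit, at a median of 22.5 bp, with 65.6% within 30 bp, and it was on the plus strand in 50.6%.

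Short motifs of other factors were searched on both strands in the same windows, and every fixed letter had to match. The CTCF core was allowed 1 mismatch, so its share cannot be set beside those of these motifs. The Sp1 box GGGCGG stood in 40.4% of the sites (interval 38.8 to 42.1), against 38.3% of all LKO-labelled CTCF peaks, 48.97% of gained peaks with new Smc3, 28.1% of kept peaks and 32.6% of the windows at protein coding starts. The share was thus near that of the whole list. The NF-Y box CCAAT was in 14.1% of the sites, 14.4% of all peaks of the list and 23.8% of the windows at starts. The ETS letters CCGGAAGT were in 0.962% against 3.54% of the windows at starts. Motifs of liver factors were rare, with the FOXA letters TGTTTAC in 1.43% against 1.81%, the HNF4A letters CAAAGTCCA in 0.204% against 0.306%, the C/EBP letters TTGCGCAA in 0.0291% against 0.125%, and the HNF1 motif in 0 of 3432 sites, which allows a share of up to 0.107%, against 0.0246%. The YY1 letters AAGATGGCG were in 0.670% against 1.79%, the NRF1 letters GCGCATGCG in 0.641% against 1.29%, and the CRE letters TGACGTCA in 0.408% against 1.44%. None of these motifs holds another of the set, but any of them may overlap a CTCF core. The windows at starts are not a matched background, since many of the sites lay away from starts.

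Most of the sites were at promoters, here taken as the surroundings of any annotated transcript start, also one inside a gene. The CTCF summit lay within 1000 bp of an annotated transcript start in 61.1% of them (2097 of 3432, interval 59.4 to 62.7), against 56.4% of all LKO-labelled CTCF peaks, 40.9% (39.3 to 42.6) of kept peaks, 73.8% (72.9 to 74.7) of gained peaks with new Smc3 and 23.6% (22.3 to 24.9) of gained peaks without Smc3. Of the others, 16.3% were in introns, 16.1% between genes and 6.59% in exons. The median distance to a start was 422 bp, with 19.96% of summits in the first 200 bp downstream of a start and 17.4% in the 200 bp upstream. Kept peaks leaned the other way, with 6.58% and 19.5%. The windows were GC-rich, with a median GC content of 64.7% against 59.2% at kept peaks, 68.2% at gained peaks with new Smc3 and 61.7% at those without Smc3.

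The distance between the gained CTCF summit and the WT Smc3 summit is a description, since the rule asks the peaks to overlap. Its median was 41 bp, and 56.8% of the sites had the summits within 50 bp, against a median of 24 bp at the kept peaks with a WT Smc3 peak. Sites with the core had a median of 26 bp and sites without it 54 bp. Taking for each site the WT Smc3 peak it overlapped most, the sites fell on 3384 different peaks, 3336 of which had 1 site and 48 had 2, and 25 sites shared their WT Smc3 peak with a WT CTCF peak. The nearest WT CTCF peak was a median of 64974 bp away, and 103 sites had one within 1000 bp.

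**Figure D1:**
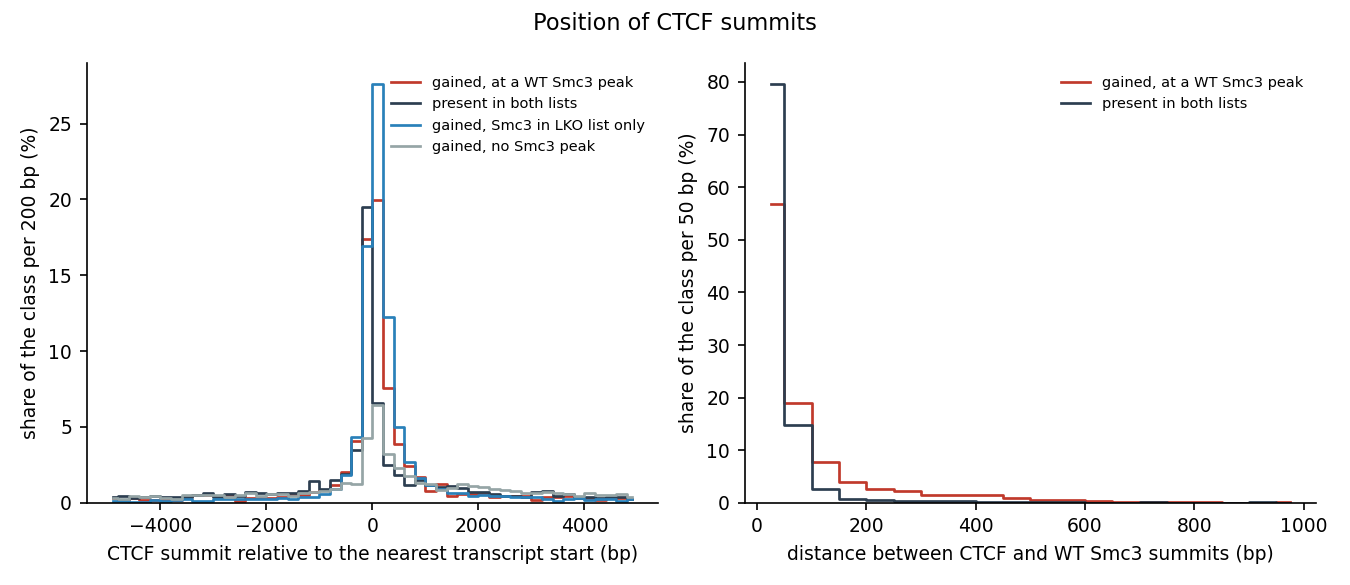
Position of CTCF summits. Left, share of each class in 200 bp steps (y axis, percent) by distance of the summit from the nearest transcript start (x axis, bp, positive downstream), where gained sites at WT Smc3 peaks reach 19.96% just downstream of starts. Right, share in 50 bp steps by distance from the WT Smc3 summit (x axis, bp), where 56.8% of gained sites are within the first step.

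Every chromosome but Y held such sites. Their share of the LKO-labelled CTCF peaks ran from 13.3% (interval 11.3 to 15.5) on chromosome 10 to 24.7% (18.001 to 32.4) on chromosome X, where 37 of 150 peaks were of this kind. The lowest and highest intervals did not overlap, but the share on X rests on few peaks. Few sites lay in domains of Lamin A/C or H4K20me3. A WT Lamin A/C island held 1.14% of them and a WT H4K20me3 island 0.466%, against 7.64% and 5.72% of all LKO-labelled CTCF peaks, 2.52% and 0.652% of kept peaks and 17.98% and 16.97% of gained peaks without Smc3.

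More than 50% of the sites were in chromatin that was already acetylated in WT liver. A WT H3K27ac peak, the acetylation of active promoters and enhancers, overlapped 58.9% of them (interval 57.2 to 60.5), against 45.5% of all LKO-labelled CTCF peaks, 35.1% (33.5 to 36.8) of kept peaks and 62.5% (61.5 to 63.5) of gained peaks with new Smc3. An LKO-labelled H3K27ac peak overlapped 59.9% (58.2 to 61.6), against 52.7% of all peaks of the list and 76.7% of gained peaks with new Smc3. A peak of transposase-accessible chromatin overlapped 39.4% (37.8 to 41.1) in the WT list and 30.1% (28.6 to 31.7) in the LKO-labelled list, against 25.7% and 19.2% of all peaks and 39.9% and 30.9% of kept peaks. In 30.4% of the sites none of these marks was called in either list.

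H3K27ac at the sites was nearly the same in both lists. It was called in both lists at 57.6% of the sites, in the WT list only at 1.22% and in the LKO-labelled list only at 2.27%. At gained peaks with new Smc3 the last share was 15.0%. Where both lists had a peak, the median H3K27ac fold enrichment was 42.3 in the WT list and 45.6 in the LKO-labelled list, a median log2 ratio of 0.02, with 51.5% of 1978 sites higher in the latter. For ATAC-seq, 28.4% of the sites had a peak in both lists, 11.01% in the WT list only and 1.69% in the LKO-labelled list only, and the median log2 ratio over 975 sites with both was -0.08. The appearance of CTCF peaks at these sites was accompanied by few appearances of acetylation or accessibility peaks.

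**Figure D2:**
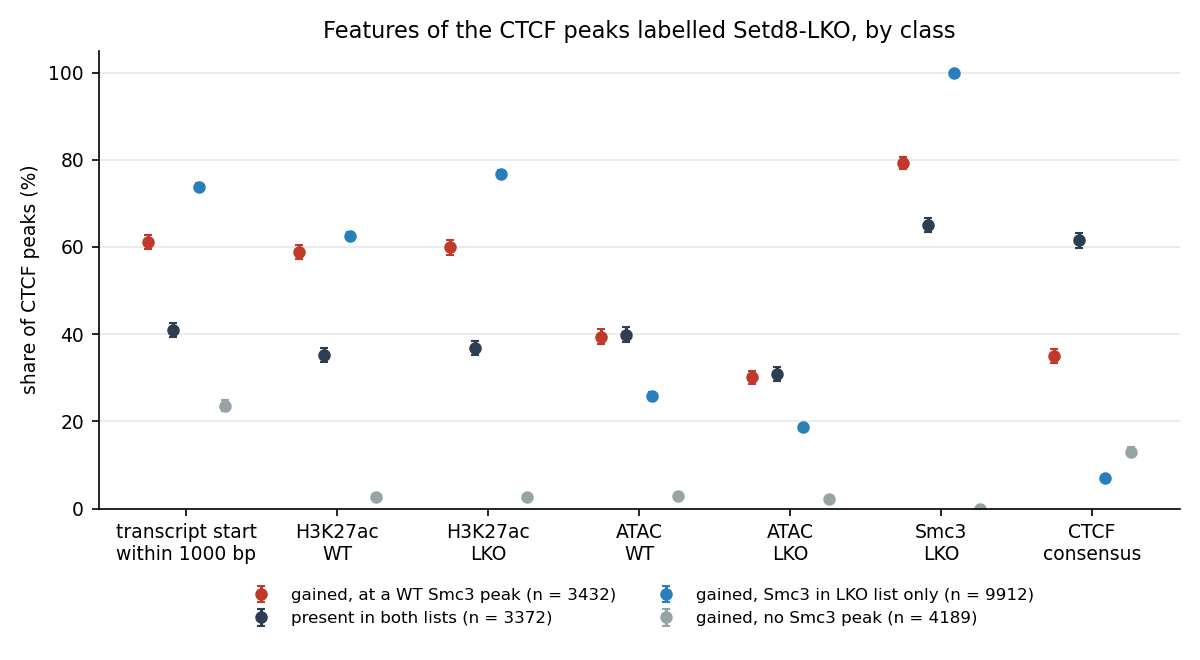
Share of the CTCF peaks of each class (y axis, percent) that overlap each feature, with 95% Clopper-Pearson intervals as bars. Gained sites at WT Smc3 peaks (red) lie between kept peaks and gained peaks with new Smc3 for promoter position and for the CTCF consensus, and close to kept peaks for ATAC-seq. The share of 100% for Smc3 at gained peaks with new Smc3 and the 0% at those without Smc3 follow from how these classes were defined.

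Smc3 was still called at most of the sites, with a higher fold enrichment. An Smc3 peak of the LKO-labelled list overlapped 79.4% of the sites (2724 of 3432, interval 78.0 to 80.7), against 70.9% of all LKO-labelled CTCF peaks and 65.01% (63.4 to 66.6) of kept peaks. These sets are unlike, since the share of both other gained classes is fixed by their definition and some kept peaks had no WT Smc3 peak. Of the 2822 kept peaks that had one, 1958 overlapped an LKO-labelled Smc3 peak. At the 2724 sites the median Smc3 fold enrichment was 11.5 in the WT list and 82.1 in the LKO-labelled list, a median log2 ratio of 2.79, and 91.7% were higher in the latter. Kept CTCF peaks with Smc3 in both lists went from a median of 17.4 to 58.1, a median log2 ratio of 1.76. The rise was not particular to gained CTCF, as 727 WT Smc3 peaks with no CTCF peak in either list also went from 10.3 to 42.5, a median log2 ratio of 1.99. Over whole lists the median Smc3 fold enrichment was 13 in WT and 29.5 in LKO-labelled liver, so the scale of the lists differed as well, and its part in these ratios was not tested. The Smc3 peaks were also wider, at a median of 1066 bp against 344.5 bp in the WT list at the same sites, where whole lists had medians of 667 and 301 bp.

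Seen from the Smc3 side, WT Smc3 peaks without a WT CTCF peak numbered 8676. Of these, 3442 overlapped a gained CTCF peak of the kind described, any overlap counted, and 79.5% of them overlapped an LKO-labelled Smc3 peak (interval 78.1 to 80.8). Another 5198 gained no CTCF peak, and 13.99% of them (13.1 to 14.96) overlapped an LKO-labelled Smc3 peak. For WT Smc3 peaks that already had CTCF the share was 47.0% of 4369 (45.5 to 48.5). Unlike the groups before, these were not divided by the presence of an LKO-labelled CTCF peak, so the shares are not alike. Of the 2822 kept CTCF peaks with a WT Smc3 peak, 1958 overlapped an LKO-labelled Smc3 peak. The median WT Smc3 fold enrichments of these groups were 11.8, 12 and 15.6. The peaks that gained CTCF were within 1000 bp of a start in 61.5% and under WT H3K27ac in 58.5%, while those that did not had 17.7% and 15.7%. The core of the CTCF consensus was less common where CTCF was gained, at 37.1%, than where it was not, at 58.4%, and most common at WT CTCF sites, at 69.7%.

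Promoter sites and distal sites differed in sequence and in chromatin. The 2097 sites at a start held the core in 18.8% (interval 17.2 to 20.6) and the 1335 away from starts in 60.1% (57.5 to 62.8). A WT H3K27ac peak overlapped 85.5% of the former and 17.004% of the latter, a WT ATAC peak 50.3% and 22.4%, and an LKO-labelled Smc3 peak 95.4% and 54.2%. The Sp1 box was in 54.1% and 19.0%. None of the marks was called at 9.30% of the sites at a start and at 63.7% of those away from starts. Where Smc3 was called in both lists, its median fold enrichment went from 10.9 to 91.4 at starts (median log2 ratio 3.01, 2001 sites) and from 13.9 to 28.9 away from starts (1.01, 723 sites).

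The kept CTCF peaks showed the same contrast of position in smaller measure. Their Smc3 log2 ratio had a median of 2.35 at starts and 0.56 away from them, and 49.9% of kept peaks at starts held the core against 69.6% away. Thus kept and gained sites were more alike away from starts (69.6% and 60.1% with the core) than at starts (49.9% and 18.8%).

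Position and sequence together gave 4 groups. The largest was 1702 sites at a start without the core, of which 91.7% were under WT H3K27ac and 97.8% kept an Smc3 peak. The 395 sites at a start with the core had 59.0% and 85.1%. Away from starts, 532 sites without the core had 31.8% and 62.8%, and 803 sites with the core had 7.22% and 48.4%. Both shares were lower in each group than in the one before, without overlap of their intervals.

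**Figure D3:**
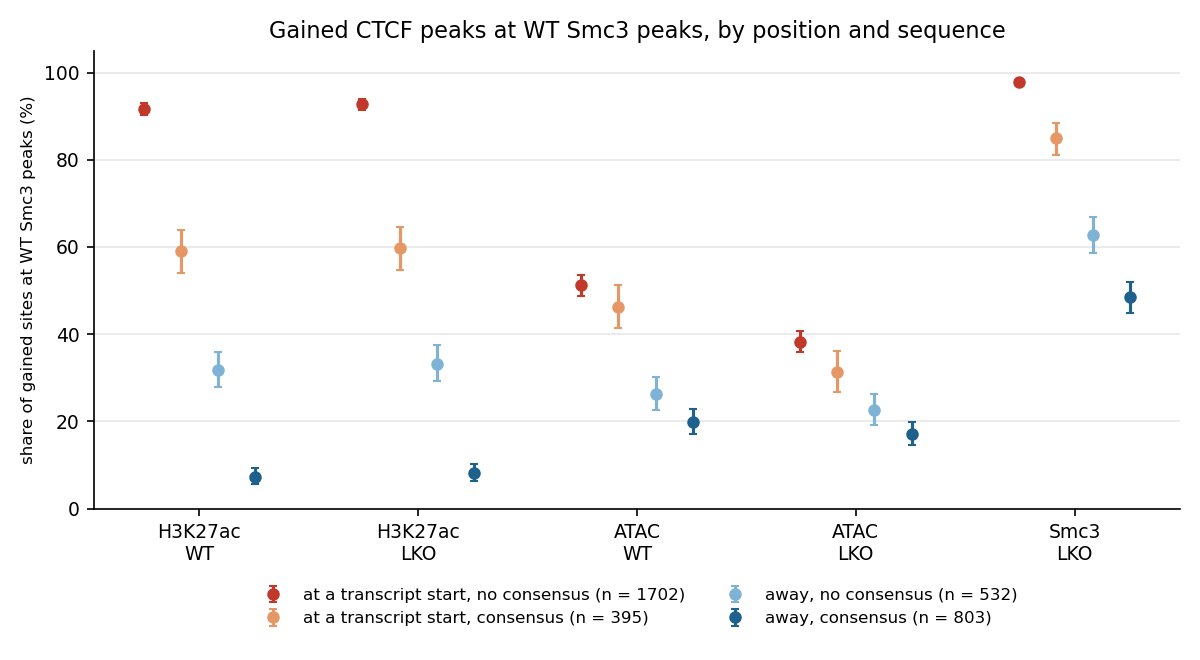
Gained CTCF sites at WT Smc3 peaks split by position (within 1000 bp of a transcript start or away) and by the CTCF consensus, with the share overlapping each kind of peak (y axis, percent) and 95% Clopper-Pearson intervals as bars. WT H3K27ac falls from 91.7% at starts without the consensus to 7.22% away from starts with it.

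The 708 sites at which no LKO-labelled Smc3 peak was called were mostly distal canonical sites. They held the core in 66.8% and lay at a start in 13.6%, with WT H3K27ac at 4.80%. The 2724 that had one held the core in 26.6%, lay at a start in 73.5% and were under WT H3K27ac in 72.9%. CTCF fold enrichment, which had a median of 19.5 and ran from 5.29 to 117 over the sites, did not order them by position. With the sites in 4 groups by this value, 70.7% of the lowest group were at starts and 21.2% had the core, and 66.6% and 42.03% of the highest. For comparison the median was 39.6 at kept peaks and 11.7 in both other gained classes.

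At the limits of the rule, the sites closest to a WT CTCF peak were 51 bp from it near Myrf, 63 bp at Artn, 79 bp in Cyp46a1, 102 bp near Gm14138 and 138 bp near Cldn4. Those with the smallest overlap with a WT Smc3 peak shared 2 bp with it at Nelfa and Cobll1, 6 bp at Eif3k and 9 bp at Exosc4 and Epc2. Just outside were gained CTCF peaks that adjoined a WT Smc3 peak at Sdc1 or missed it by 2 bp at Slc25a30, 4 bp near Kdm5b, 5 bp at Scamp1 and 6 bp at Taf11. Their CTCF fold enrichment of 10.3 to 15.9 lay within the range of the sites just inside, 5.67 to 48.1.

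After Dagla, Slc6a4 and Rab10os, the strongest sites by CTCF fold enrichment were the site nearest to Spry2, an inhibitor of receptor tyrosine kinase signalling, at 105.1, and sites at the starts of Prcp, a lysosomal peptidase, at 100.4, and Arid2. Sites at the starts of Tirap, an adaptor of Toll-like receptors, Ppif, the mitochondrial cyclophilin, Zfp786 and Retreg2 followed at 98.0, 97.1, 96.7 and 94.6. Of these 10, 9 were under WT H3K27ac, 8 were within 1000 bp of a start, and only Spry2 and Zfp786 had the core. All 10 had a higher Smc3 fold enrichment in the LKO-labelled list, for example 11.4 and 100.04 at Ppif (chr14:25693841-25694491) and 10.7 and 91.1 at Zfp786 (chr6:47830203-47830833).

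The 10 sites with the strongest WT Smc3 held the core more often and lay at starts less often than the 10 with the strongest CTCF. The highest WT Smc3 fold enrichments were 47.1 at Snx18, a sorting nexin, 37.3 at Gbp3, an interferon-induced GTPase, 36.3 in E230025N22Rik and 36.0 at Apbb2. Pawr, 3110039I08Rik, Ccny, Gnai2, Gm34152 and Gm43309 followed with 33.7 to 35.1. Of these 10, 8 had the core and 4 lay at a start. In 4 of them Smc3 was lower in the LKO-labelled list, with 19.2 at Gbp3, 10 in E230025N22Rik, 17 in 3110039I08Rik and 32.5 at the site nearest to Pawr, a pro-apoptotic gene. Ranking by the WT value favours a lower value in the LKO-labelled list, and its part here was not tested. The site nearest to Gnai2, an inhibitory G protein subunit, had 46 in that list and a CTCF fold enrichment of 93.3, with a WT CTCF peak 644 bp away. The Snx18 and Apbb2 sites also had a WT CTCF peak close by, at 199 and 373 bp. Their CTCF summits lay 571 and 685 bp from the WT Smc3 summit, so the strong WT Smc3 signal was not centred on the gained CTCF peak.

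Liver transcription factors were among the genes with a site at a start. In all 2392 genes had one, 1980 of them protein coding, which is 8.99% of 22028 protein coding genes. A site could serve more than 1 gene, as 453 sites did, and 165 genes had 2 or more sites. Of 34 liver transcription factors in the list used, 12 (35.3%) had a site, namely Foxa3, Gata4, Gata6, Klf15, Mlxipl, Nr5a2, Onecut1, Rxra, Stat5a, Stat5b, Tcf7l2 and Xbp1. Of the same 34, 14 had a gained peak with new Smc3 and 25 any LKO-labelled CTCF peak, so this is not a trait of these sites alone. In other lists 3 of 48 plasma protein genes (6.25%) had one (Apoe, Apoh and C3), 1 of 38 genes of the CAR and xenobiotic response (2.63%, Gadd45a) and 2 of 47 cell cycle genes (4.26%, Ccnd3 and Myc). The lists were chosen with earlier results known and are described by their counts only.

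Foxa3, a pioneer factor of liver, had the strongest site of the transcription factors (chr7:19023343-19023850), with a CTCF fold enrichment of 82.9 and an Smc3 fold enrichment of 17.4 and 151. The site at Nr5a2, a receptor that controls bile acid synthesis, had a CTCF fold enrichment of 20.5 and an Smc3 fold enrichment of 15.7 and 119, and that at Klf15, a regulator of gluconeogenesis, held the full core. Rxra, the partner of many nuclear receptors, and Tcf7l2 and Xbp1 had 2 sites each. Gata4 had one of the weaker sites, with a CTCF fold enrichment of 8.25. All sites at these 12 genes had an LKO-labelled Smc3 peak, and all but 1 of the 2 at Tcf7l2 were under WT H3K27ac.

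Of 41 genes of hepatic metabolism 4 (9.76%) had a site, among them Acaca and Acacb, the acetyl-CoA carboxylases of fatty acid synthesis, and Fasn, the fatty acid synthase. The CTCF fold enrichments of these 3 were 62.8, 59.4 and 36.7. The Acaca site (chr11:84179274-84180376) had an Smc3 fold enrichment of 13.7 and 109. Of 22 genes of H4K20 methylation and the lamina, 5 (22.7%) had a site, namely the lamin genes Lmna and Lmnb1, the lamina-associated gene Tmpo, Hmgb1 and Syne2. Of the same 22, 14 had a gained peak with new Smc3 and 18 any LKO-labelled CTCF peak, so this too is not particular to these sites. Of 23 genes of CTCF and cohesin, 2 (8.70%) had one, and Stag2, a subunit of cohesin itself, had a site at chrX:42148926-42149501 with a CTCF fold enrichment of 81.2 and an Smc3 fold enrichment of 13.6 and 90.5. Maz, a zinc finger factor found with CTCF, was the other. Of these 23 genes, 12 had a gained peak with new Smc3 and 17 any LKO-labelled CTCF peak. Of 37 genes of the p53 response and senescence, 4 (10.8%) had one, namely Bbc3, Plk2, Plk3 and Sesn1, while 13 had a gained peak with new Smc3 and 20 any LKO-labelled CTCF peak. No marker gene of hepatocytes or of the other liver cell types listed had a site. With 8 hepatocyte markers and a share of 8.99% of all protein coding genes, such short lists cannot show a lack of sites.

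RNA was compared at genes with a site within 1000 bp of a start. The 2 deposited tables list only genes that the authors had selected as changed, 3900 for TCPOBOP-treated Setd8-LKO and 719 for TCPOBOP-treated WT, each against untreated WT, so nearly every gene is called and the direction is the part left to describe. The same libraries that selected the genes gave the tests, which are therefore not independent evidence. Called means an adjusted p of at most 0.05 in edgeR's quasi-likelihood test and a log2 fold change of at least 1 in either direction. Values are counts normalized by the authors. In bulk liver, fewer cells of a type and less RNA per cell cannot be told apart. The paper describes the RNA-seq samples as biological replicates, a term it explains as mice for its imaging assays. The labels do not state this for each library, and the p-values measure only the spread between these samples.

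Kmt5a, the gene that encodes Setd8, had 613, 567, 761, 563 and 715 normalized counts in untreated WT liver, while the LKO-labelled libraries had 1341, 1465, 1338 and 1313. It was thus higher in every library labelled as the knockout (log2 fold change 1.08 ± 0.14 SE, adjusted p = 3.04e-05 in edgeR), and the groups are named by their labels for this reason. Under DESeq2 size factors over the listed genes its log2 fold change was 0.27 with an adjusted p of 0.194. A count per gene does not measure exon 7 alone.

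Cell type markers moved with the comparison. Of 8 hepatocyte markers 5 were listed, all called lower, and their summed counts ran from 457775 to 649782 in LKO-labelled and from 1090293 to 1872368 in untreated WT libraries. All 4 listed of 7 stellate cell markers were called higher (5103 to 11702 against 2071 to 3108), as were 5 of 6 cholangiocyte markers (1627 to 7466 against 427 to 690) and the Kupffer cell gene Marco (304 to 489 against 73 to 272). Of 7 lymphocyte and neutrophil markers 3 were listed, with 1 called higher (S100a9) and 1 lower (summed counts 73 to 130 against 18 to 109), and none of 6 sinusoidal endothelial markers was listed. The part of cell composition in the RNA results that follow was not tested.

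Listed genes with a site at a start fell more often than listed genes as a whole. The table of LKO-labelled against untreated WT liver listed 321 of the 1980 protein coding genes with a site, 16.2% (interval 14.6 to 17.9), against 13.5% of all protein coding genes. Of 357 genes with a site that were tested, 162 (45.4%, 40.1 to 50.7) were called higher and 191 (53.5%) lower, against 58.5% and 39.5% of all 3726 tested genes. The median log2 fold change was -1.04 against 1.16. Since nearly every listed gene was called in one direction or the other, this median follows the majority and does not measure the size of a shift. Kept CTCF peaks, gained peaks with new Smc3 and gained peaks without Smc3 went with higher calls in 66.2%, 68.6% and 67.6% of their listed genes. The 262 genes whose only CTCF peaks at a start were of the kind described had 42.4% higher and 56.5% lower. Scaled by DESeq2 size factors over the listed genes, which moved the median of all genes by -0.82, the calls for genes with a site became 56 higher and 195 lower, and those for all listed genes 913 and 1527.

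The direction went with the level of expression. Genes with a site had a median of 379 normalized counts in untreated WT liver, and all listed genes 73.5. Those with a site called lower had a median of 1184 and those called higher 86.1, and all listed genes had 624.2 and 26.5. The untreated level also enters the fold change itself. In 4 groups by mean level, genes with a site were called lower in 34.3%, 15.4%, 46.1% and 78.9% from the lowest to the highest, and all listed genes in 23.7%, 26.1%, 37.6% and 70.7%. The difference between genes with a site and all listed genes therefore depended on the level, and in the second group it had the other sign.

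Acetylation at the site went with the direction as well. Among tested genes whose site was under WT H3K27ac, 122 were called higher and 178 lower (40.1% and 58.6% of 304). Where the site had no WT H3K27ac peak, 40 were called higher and 13 lower (75.5% and 24.5% of 53). The same split at gained peaks with new Smc3 gave 66.3% and 79.6% higher. Genes with a site under a WT ATAC peak were called lower in 62.0% and the others in 44.9%, and genes whose site held the core were called lower in 42.4%, against 56.0% of those without it. The groups also differed in level. The median untreated count was 569.9 with and 44.8 without a WT H3K27ac peak at the site. It was 508 and 320.5 with and without a WT ATAC peak, and 331.1 and 402.2 with and without the core. No test of these differences was run, and the part of level in them was not tested.

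**Figure D4:**
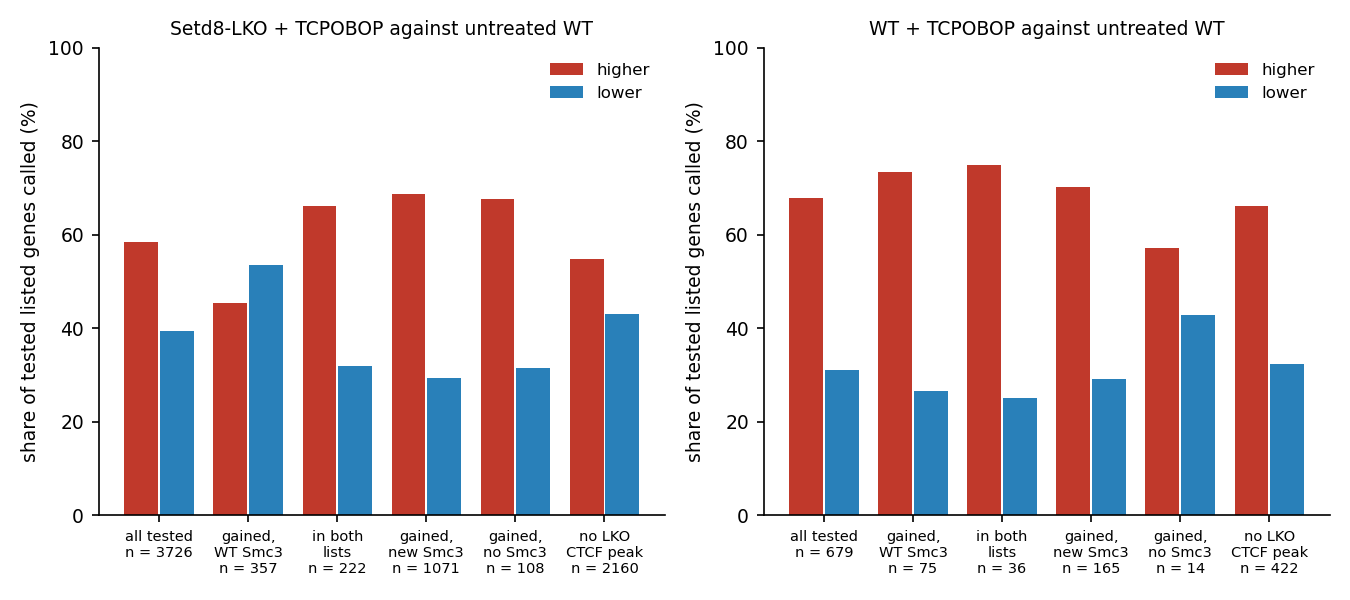
Share of tested listed genes called higher (red) and lower (blue) in TCPOBOP-treated Setd8-LKO-labelled liver (left) and TCPOBOP-treated WT liver (right) against untreated WT, by the class of CTCF peak within 1000 bp of a start (y axis, percent, n under each pair). Genes with a gained CTCF site at a WT Smc3 peak are the only class on the left with more lower than higher calls under the authors' scaling.

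Mlxipl, Fasn, Acaca and Acacb, which had a site, were lower in LKO-labelled liver. The sites of Mlxipl, Acaca and Acacb lay at transcript starts inside these genes, and that of Fasn at its 5' end. The Acacb site (chr5:114248020-114248846) was near the 3' end of the gene, which runs from 114146535 to 114250761 on the plus strand. It had no H3K27ac or ATAC peak in either list. Mlxipl encodes ChREBP, the glucose-responsive activator of lipid synthesis. It had 9254, 6969, 7098, 6543 and 7983 normalized counts in untreated WT libraries and 1503, 1636, 1917 and 1478 in LKO-labelled ones (log2 fold change -2.21 ± 0.17, adjusted p = 1.41e-06 in edgeR). Fasn had 13072, 11948, 6403, 12980 and 8463 against 1824, 2578, 1984 and 2198 (-2.30 ± 0.25, adjusted p = 1.04e-05). The groups did not overlap for either gene. Acacb had 2506, 1924, 1436, 3099 and 2803 against 300, 265, 460 and 478 (-2.65 ± 0.28, adjusted p = 9.39e-06), and Acaca 2404, 2195, 2113, 2679 and 2175 against 808, 970, 809 and 784 (-1.46 ± 0.14, adjusted p = 5.11e-06). Again every LKO-labelled library was below every untreated one. These 3 enzymes were among 24 listed genes of hepatic metabolism, all of them called lower, so 21 without a site fell too. In the list of liver transcription factors 7 were listed, with Gata6 called higher and 6 lower, of which Mlxipl and Onecut1 had a site.

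Onecut1, also known as HNF6, is a factor of hepatocyte and bile duct development, and its site lay at a transcript start inside the gene. It had 2146, 1815, 2312, 1039 and 801 counts in untreated WT and 275, 174, 215 and 401 in LKO-labelled libraries (log2 fold change -2.61 ± 0.37, adjusted p = 6.47e-05 in edgeR). Gata6 had 124, 113, 165, 160 and 152 against 449, 407, 384 and 390 (1.51 ± 0.16, adjusted p = 9.67e-06). Neither pair of groups overlapped, but Gata6 missed the fold threshold under DESeq2 size factors, with 0.70. Apoh, a plasma glycoprotein, had 24520, 31401, 26599, 22411 and 29111 against 7832, 7337, 10745 and 10850 (-1.54 ± 0.20, adjusted p = 3.38e-05). It was 1 of 18 plasma protein genes called lower among 21 listed.

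Gadd45a, Trib3, Atf3, Myc and Lmna, which had a site, were higher. The Lmna site lay at a transcript start inside the gene. Gadd45a, which is induced by DNA damage and by CAR, had 118, 168, 61, 61 and 44 counts in untreated WT and 726, 872, 1048 and 1023 in LKO-labelled libraries (log2 fold change 3.35 ± 0.37, adjusted p = 1.08e-05 in edgeR). It was 1 of 25 listed genes of the CAR response, all called higher. Trib3, a pseudokinase of the stress response, had 161, 135, 66, 80 and 73 against 1214, 1210, 2550 and 2826 (4.24 ± 0.38, adjusted p = 3.33e-06). Atf3, a stress-induced transcription factor, had 23, 30, 19, 32 and 14 against 239, 207, 604 and 433 (3.97 ± 0.37, adjusted p = 4.40e-06). No library of one group reached the other in these 3 genes. Myc had 52, 41, 297, 50 and 44 against 497, 455, 635 and 691 (2.55 ± 0.58, adjusted p = 0.00149), where 1 untreated library stood far above the other 4. Without that library, untreated replicate 3, the log2 fold change of Myc was 3.59. Lmna, the gene of Lamin A/C, had 763, 859, 751, 989 and 673 against 1901, 1681, 1912 and 2163 (1.25 ± 0.15, adjusted p = 2.08e-05), but 0.44 with an adjusted p of 0.0874 under DESeq2 size factors. All 32 listed cell cycle genes, Myc included, and all 15 listed genes of the p53 response were called higher, and none of those 15 had a site, while the 4 genes of that list with a site were not listed. Of the list of CTCF and cohesin 3 genes without a site (Cdca5, Esco2 and Top2a) were called higher, and of the list of H4K20 methylation and the lamina Lmna, Kmt5a and Tpr.

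Egfr, the receptor of epidermal growth factor, was one of the largest falls. It had 24441, 19116, 16644, 24273 and 12036 counts in untreated WT and 1589, 900, 2580 and 1136 in LKO-labelled libraries (log2 fold change -3.64 ± 0.37, adjusted p = 6.75e-06 in edgeR). Ttc39c had 14988, 13624, 11461, 11100 and 11062 against 991, 947, 891 and 1333 (-3.58 ± 0.20), and the noncoding gene Gm50063, which shares its site, fell by 3.96. The groups did not overlap in these genes. The shared site lay at a transcript start inside Ttc39c. The other largest falls were those of Gm32569 (-4.04), Sntg2 (-3.60), Aacs, an enzyme of ketone body use (-3.37), the adrenergic receptor gene Adrb3 (-3.03), A530084C06Rik (-2.93, and -2.26 without untreated replicate 3), Ppp1r3c, a glycogen-targeting subunit of protein phosphatase (-2.92), and Slc22a7, an organic anion transporter (-2.88). Their sites ran from 11.7-fold CTCF enrichment at Egfr to 56.9 at Ttc39c.

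The largest rises began from very low counts. Meltf, which encodes melanotransferrin, had 1, 3, 0, 0 and 0 counts in untreated WT and 72, 99, 24 and 32 in LKO-labelled libraries, so that its fitted log2 fold change of 6.20 depends on the prior count. Elovl7, a fatty acid elongase, had 2, 1, 3, 3 and 2 against 195, 130, 92 and 177 (5.89), and Inava 2, 0, 10, 2 and 4 against 190, 157, 144 and 120 (5.25). Prrg4 had 10, 9, 7, 11 and 3 against 321, 321, 286 and 291, a log2 fold change of 5.22 ± 0.27 (adjusted p = 1.97e-07 in edgeR). In all 4 genes the groups were far apart. Myo15b (4.74), Ddias (4.45), which shares its site with Prcp, the imprinted noncoding gene Meg3 (4.38) and Sgo1, the protector of centromeric cohesin (4.04), followed. Leaving out untreated replicate 3 moved Inava to 6.04 and Sgo1 to 4.66, and leaving out untreated replicate 2 moved Meltf to 7.24. Over all 357 tested genes with a site, the groups did not overlap in 321, and over all 3726 tested genes in 3235.

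**Figure D5:**
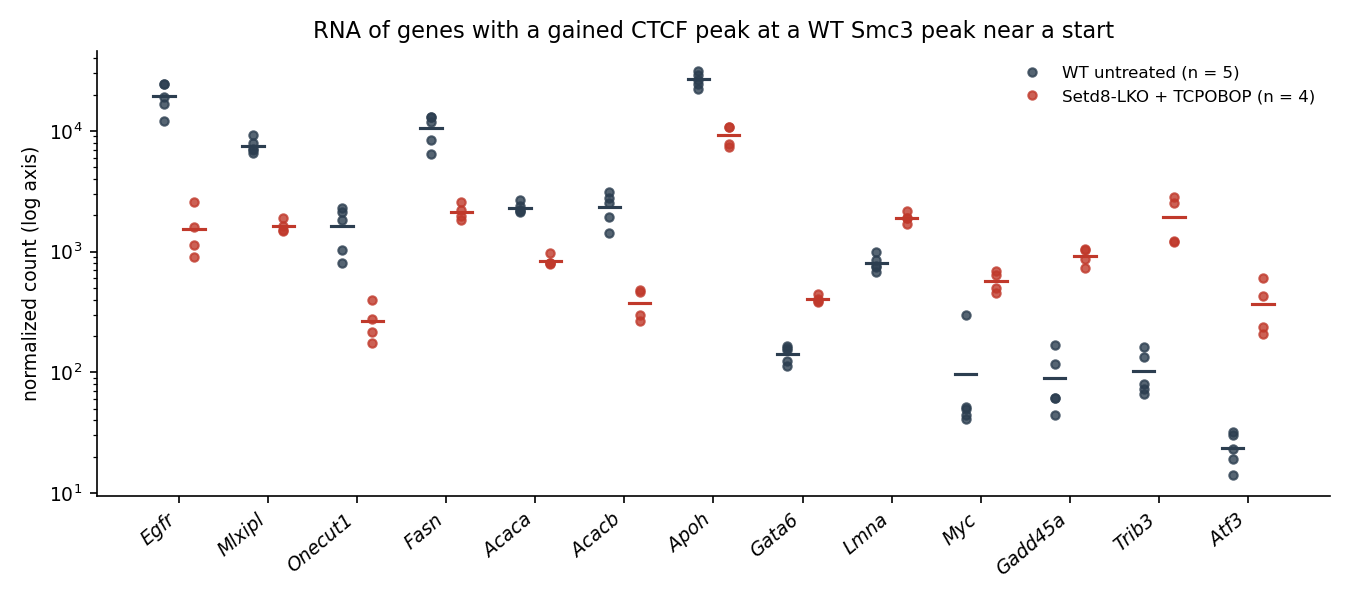
Normalized counts per library (log axis) of genes with a gained CTCF site at a WT Smc3 peak, in 5 untreated WT libraries (dark) and 4 libraries labelled Setd8-LKO (red), with group means as lines. No library of one group reaches the other in these 13 genes, and the highest untreated Myc library, at 297, stands above its group.

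TCPOBOP in WT liver gave few listed genes with a site, and their directions were near those of all listed genes. Of 1980 protein coding genes with a site 68 were listed (3.43%, interval 2.68 to 4.33), against 2.52% of all protein coding genes. Of 75 tested, 55 (73.3%, 61.9 to 82.9) were called higher and 20 (26.7%) lower, against 67.9% and 31.1% of all 679 tested genes, with a median log2 fold change of 1.28 against 1.34. Under TMM scaling over the listed genes, which moved the median of all genes by -1.25, the calls were 6 higher and 20 lower, and those for all listed genes 111 and 216. Both tables share the untreated libraries.

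Fosl2, a subunit of the AP-1 factor, had 155, 115, 157, 222 and 122 counts in untreated WT and 1599, 1466, 1390, 1233 and 1396 in TCPOBOP-treated WT libraries (log2 fold change 3.20 ± 0.21, adjusted p = 2.44e-07 in edgeR). Gadd45a had 903, 916, 834, 704 and 533 in the treated libraries (3.11 ± 0.37, adjusted p = 1.89e-05). C3, the central component of complement, had 154846, 146389, 148991, 192540 and 136929 against 480191, 461626, 429451, 398819 and 452445 (1.51 ± 0.16, adjusted p = 9.22e-06). In these genes every treated library was above every untreated one. The C3 site lay at a transcript start inside the gene. Pdzrn3 (2.86), Mad1l1, a spindle checkpoint gene (2.78), and Antxr1 (2.42) also rose. Among the falls, Ppp1r3c had 811, 1303, 315, 450 and 566 against 77, 70, 103, 159 and 138 (-2.66 ± 0.40, adjusted p = 9.07e-05), and it fell by 2.92 in LKO-labelled liver.

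Zyg11a had 250, 189, 359, 204 and 273 counts in untreated and 78, 71, 69, 81 and 151 in treated libraries and was called lower. Falls were also called for the fatty acid binding protein gene Fabp5 (-1.39), the vasopressin receptor gene Avpr1a (-1.36) and Tbc1d8 (-1.23), but all 3 calls ended when edgeR's p-values were adjusted over all genes of the annotation, with adjusted p of 0.479, 0.159 and 0.0657. Plk3 (1.19) and Myc (1.98, and 3.02 without untreated replicate 3) were called higher with overlapping groups, and Plk3 turned to -0.093 under TMM scaling. C3 and Myc missed the threshold under that scaling, with 0.25 and 0.67. Of the lists, the CAR response had 32 of 32 tested genes called higher, cell cycle 9 of 9, plasma proteins 7 higher and 1 lower of 9, hepatic metabolism 3 and 3 of 6, the p53 response 2 higher of 3, and CTCF and cohesin 1 of 1 (Top2a). No gene of the liver transcription factors or of H4K20 methylation and the lamina was listed. Of the cell type markers Ass1 (15376 to 23450 counts against 39082 to 96180 in untreated liver) and Lrat (113 to 166 against 268 to 389) were called lower and Marco (210 to 576 against 73 to 272) higher, and their part in these results was not tested. Within each of the 2 sequencing runs named in the file headers, every gene given with a log2 fold change kept its sign in both comparisons. One of these runs holds a single LKO-labelled library, and most of the genes were named for changes without overlap in these libraries.

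Several named genes overlap exons of another gene, and whether counting used the strand is not given in the sources used here. These pairs are Inava with Gm26568, Myo15b with Recql5, Meg3 with Gm26906 and small RNAs, Adrb3 with Gm45470, A530084C06Rik with Foxq1, Onecut1 with Gm20649, Gata6 with 1010001N08Rik, Mlxipl with Gm43500, Apoh with Prkca, Gadd45a with E230016M11Rik, Mad1l1 with Gm16121, Antxr1 with n-R5s164, Tbc1d8 with Rpl31 and Plk3 with Tctex1d4. Reads of the partners cannot be told apart for these genes.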

How the data were processed

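The authors trimmed reads with Trimmomatic 0.39, aligned them to mm10 with HISAT2, removed duplicates, poorly mapped reads and reads in blacklisted regions, and reduced ChIP-seq and CUT&Tag libraries to the smallest one, which is not stated for ATAC-seq. They called peaks with MACS2 2.2.7.1 and islands with SICER. Whether libraries were pooled for calling is not given in the sources used here. The deposited peak lists hold the fold enrichment over background (a ratio) and the −log10 p of each peak, and the deposited island lists a score. RNA-seq counts per gene were made and normalized by the authors with metaseqR after HISAT2 alignment, and the deposited tables hold the counts of selected genes only, so their column sums (5734065 to 12780869 in the table for Setd8-LKO, 1389901 to 3706582 in the other) are not depths. Columns with the authors' own p-values, FDR and fold changes and 114 columns of transformed values were not used.

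Peaks were compared by a 1 bp overlap and annotated with GRCm38 genes in Python 3.11.15 (pandas 2.3.3, scipy 1.17.1, pysam 0.24.0). Sequences are from the GRCm38 genome, and none is printed over an annotated UTR or from chromosome 18. The gene counts went into the quasi-likelihood test of edgeR 4.0.16 (R 4.3.3, filterByExpr, minimum count 10, the authors' normalization factors as scaling) with Benjamini-Hochberg adjustment over the tested listed genes. The overlap routine and the count test were tested on simulated data. The members, lists and tests were chosen with earlier results of these data known. Genes and sites named are the 10 sites with the highest CTCF and the 10 with the highest WT Smc3 fold enrichment, those nearest the limits of the rule, genes of the lists with a site, Kmt5a, and the largest rises and falls (10 and 10, or 5 and 5 for TCPOBOP in WT) among called genes whose groups do not overlap. Alternatives covered the overlap, peak thresholds, windows, the consensus, DESeq2 1.42.0, scaling, filters, the sequencing run, the replicate block and leaving out each library. Some results that this rule names are not reported here.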

Additional observations from a re-analysis of the deposited data

Results flagged for a closer look

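In 6 of 88 groups of RNA libraries looked at for the named genes, the highest or lowest library stood apart from the rest by Dixon's criterion, the gap to its neighbour as a share of the whole range. Chance alone gives about 1 in 20. The untreated group of a gene named in both comparisons counts in each among the 88 but only once among the 6, so this ratio is approximate. In the comparison of LKO-labelled with untreated WT liver, the share was 0.957 for the highest untreated Myc library (297 counts, next 52), 0.926 for the lowest LKO-labelled Sgo1 library (39, next 64), 0.714 for the highest untreated Sgo1 library (8, next 3) and 0.866 for the highest LKO-labelled Acaca library (970, next 809). In the comparison of TCPOBOP-treated with untreated WT liver it was 0.790 for the highest untreated Mad1l1 library (485, next 274) and 0.854 for the highest treated Zyg11a library (151, next 81). In none of these genes did leaving out a library end the call.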

How the results depend on the processing

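The number of sites was 3303 with an overlap of at least 50% of the CTCF peak, 3329 when WT CTCF peaks within 1000 bp were also barred, 3117 with the CTCF summit inside the WT Smc3 peak, 3150 with a −log10 p of at least 20, and 1731 when the LKO-labelled CTCF list was shortened to the length of the WT list by −log10 p. The share of sites at a start was 55.6%, 59.1% and 57.7% under the 50% overlap, the summit and the −log10 p settings, and 52.4% and 69.2% with windows of 500 and 2500 bp. In the same order of the first 3 settings WT H3K27ac was at 53.4%, 56.3% and 54.4%, LKO-labelled H3K27ac at 54.3%, 57.5% and 55.7%, and the consensus at 43.8%, 37.8% and 38.7%. LKO-labelled Smc3 was at 77.9% and 77.5% under the summit and −log10 p settings, and LKO-labelled ATAC at 31.7% under the 50% overlap. With lists of equal length, WT ATAC was at 43.2%, LKO-labelled ATAC at 33.04%, WT H3K27ac at 56.6%, LKO-labelled Smc3 at 86.5% and the consensus at 40.6%. The other classes moved more under that setting, with the consensus at 21.2% of gained peaks with new Smc3 (7.04% before) and 52.02% of those without Smc3 (13.1% before), and WT ATAC at 39.8% of gained peaks with new Smc3 (25.8% before). The consensus was in 12.6% with 0 mismatches, in 66.7% with up to 2, in 28.001% within 50 bp of the summit and in 40.1% over whole peaks.

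For genes with a site in LKO-labelled against untreated WT liver, 353 were called (162 higher, 191 lower). DESeq2 size factors over the listed genes gave 56 higher. Leaving out each library gave 328 to 350 calls, 150 to 161 higher and 177 to 192 lower. For TCPOBOP in WT liver 75 were called (55 higher, 20 lower). TMM and DESeq2 size factors over the listed genes each gave 26, with 6 higher. Adjusting over all genes of the annotation gave 45, with 5 lower. Leaving out each library gave 70 to 75, with 52 to 55 higher and 16 to 21 lower. Plk3 turned to -0.093 and -0.023 under TMM and DESeq2 size factors. The cause of these moves was not tested beyond the shift of the median of all genes that the scalings bring. With the replicate number as a block, 158 genes were called higher and 181 lower in LKO-labelled liver (161 and 183 in the same libraries without the block), and 55 and 16 in TCPOBOP-treated WT liver. The block does not rest on a pairing of samples, since same-numbered libraries did not deviate together (correlations from -0.15 to 0.07 and from -0.43 to 0.11). The fits on the same libraries without the block and the split by mean level were chosen after seeing the data.

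Limits are the single peak list per condition, the unknown depth behind each peak, genotype and treatment that change together, and RNA tables that hold only genes the authors selected on the same libraries.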
